A study of Mus musculus with 12 samples.

Results

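Autophagy is the route by which a cell encloses cytoplasm, protein aggregates or organelles in a double membrane, the autophagosome, and delivers them to the lysosome. mTORC1, the nutrient-sensing kinase complex, holds the process back when nutrients are plentiful, mainly by phosphorylating the ULK1 kinase complex and by keeping the transcription factors TFEB and TFE3 out of the nucleus. In the liver, autophagy clears damaged organelles and stored lipid, and the receptor p62, the product of *Sqstm1*, is known to accumulate in many hepatocellular carcinomas (HCCs).

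The RNA levels of 10 autophagy genes were described across normal livers and mouse HCCs with *Rictor* and *Tsc2* deleted. Included were the receptor *Sqstm1*, the ubiquitin-like genes *Map1lc3a*, *Map1lc3b* and *Gabarapl1*, and the initiation kinase *Ulk1*. The others were the lipid-binding *Wipi1*, the PI3-kinase partners *Becn1* and *Uvrag*, and the conjugation genes *Atg5* and *Atg7*. The genes were chosen by symbol, for their place downstream of mTORC1, with earlier results of these data known. All 10 were among the 17007 genes listed, each on 1 row, and all 10 passed the filter that left 14397 genes for testing.

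There were 12 libraries in 4 groups of 3. The normal livers came from untreated wild-type C57BL/6 mice. The other 3 groups were c-MYC/MCL1/RictorKO Tsc2KO HCCs, made by hydrodynamic tail vein injection of plasmids for c-MYC, MCL1 and Cre recombinase into mice with floxed *Rictor* and *Tsc2*, from mice given vehicle, MLN0128 or everolimus. MLN0128 blocks the mTOR kinase in both of its complexes, everolimus is a rapamycin analog acting on mTORC1, and the labels give gavage at 1 mg/kg/day, 6 days a week for 3 weeks starting 6 days after injection, with sacrifice at 3.7 weeks. All tumors, vehicle-treated ones included, therefore carried both deletions and both oncogenes, only hepatocytes that took up plasmid could carry them, and the normal livers had neither floxed alleles, plasmids nor gavage. The labels do not say that each library came from a separate mouse, so the p-values measure the spread between these samples, which may be technical. The study's text instead gives 3 days of drug for the tumors that were sequenced, and 3 weeks for its tumor growth experiments, so the length of treatment behind these libraries is uncertain.

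Reads recovered from the FPKM (fragments per kilobase of exon, corrected for library size) numbered 17125861 to 25151907 per library, and each of the 10 genes had at least 76 reads in every library. The authors' FPKM carried a further scaling between libraries: plain library totals would multiply normal-liver values by 0.585 to 0.596 and tumor values by 1.10 to 1.37, so each fold between tumor and normal liver rests on that scaling. *Rictor* was at 1.25 ± 0.230 FPKM (SD, n = 3) and *Tsc2* at 2.19 ± 0.157 in vehicle-treated tumors, against 2.07 ± 0.465 and 5.01 ± 0.445 in normal liver. *Rictor* was at 1.89 ± 0.287 under MLN0128 and 1.71 ± 0.192 under everolimus, and *Tsc2* at 3.39 ± 0.575 and 2.82 ± 0.0451. Every drug-treated tumor was above every vehicle-treated one for both genes, and the reason was not tested. These values cover whole genes and not the floxed exons. MLN0128 replicates 1 and 2 stood apart from the other 10 libraries, with *Xist* at 191 and 155 FPKM against at most 0.0699 and no reads on 4 Y-linked genes, so MLN0128 replicate 3 was the only library of its group that matched the others in X and Y content. Differences with replicate 3 alone rest on 1 MLN0128 library and are given as values without a test. The 8 hepatocyte markers summed to 80550 to 100221 FPKM in normal liver, 4428 to 6707 under vehicle, 2025 to 4717 under MLN0128 and 3690 to 8453 under everolimus, and the 8 macrophage markers to 274 to 333, 91.1 to 132, 38.5 to 54.8 and 63.6 to 185 FPKM in the same order. In bulk tissue, fewer cells of a type and less RNA per cell cannot be told apart, and the part these shifts played in the results below was not tested.

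Of the 10 genes, 8 had a promoter in the RefSeq-derived table for GRCm38.p6, all but *Map1lc3a* and *Becn1*. The window ran from 250 bases before the start to 50 after it and was searched on both strands. The E-box CACGTG, the core bound by MYC-MAX and by TFEB and TFE3, was present in *Atg5* and *Atg7*, and in 7.15% of all 32851 promoters. The longer TFEB-type motif TCACGTGA, which contains the E-box, and the FOXO motif TGTTTAC were in none of the 8, against 0.974% and 3.65% of all promoters. The antioxidant response core TGACNNNGC was in *Map1lc3b* only, 5 bases into the transcript, and in 12.4% of all promoters. The 250 bases upstream of *Atg5* and *Atg7* are shown because they hold the E-box, in capitals, and those of *Sqstm1* because its RNA was lower under both drugs. The *Atg7* start in that table lies inside the longer GENCODE gene, which begins at 114643097.
Atg5, chr10:44268089-44268338, plus strand: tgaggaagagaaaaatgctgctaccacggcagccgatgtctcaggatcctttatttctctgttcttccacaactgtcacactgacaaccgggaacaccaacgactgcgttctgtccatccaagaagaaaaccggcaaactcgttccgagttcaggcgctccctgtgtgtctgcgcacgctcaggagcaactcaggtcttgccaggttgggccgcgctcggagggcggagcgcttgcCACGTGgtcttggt
Atg7, chr6:114670846-114671095, plus strand: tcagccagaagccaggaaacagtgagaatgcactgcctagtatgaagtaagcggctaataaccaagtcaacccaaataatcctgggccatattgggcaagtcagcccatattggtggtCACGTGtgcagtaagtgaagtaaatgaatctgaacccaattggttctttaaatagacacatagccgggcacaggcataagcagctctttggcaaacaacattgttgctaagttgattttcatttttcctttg
Sqstm1, chr11:50210821-50211070, minus strand: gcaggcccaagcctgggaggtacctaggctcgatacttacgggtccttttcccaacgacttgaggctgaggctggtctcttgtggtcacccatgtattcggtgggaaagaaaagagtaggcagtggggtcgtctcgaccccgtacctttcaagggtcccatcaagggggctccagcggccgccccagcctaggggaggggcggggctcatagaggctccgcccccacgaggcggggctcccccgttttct
In *Atg5* the E-box began 14 bases before the start and in *Atg7* 132 bases before it. A match describes these letters only and does not show that a factor binds there.

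Most of the 10 genes had less RNA in the vehicle-treated group than in normal livers, and *Sqstm1* had more. By limma's moderated test on log2(FPKM + 1), with Benjamini-Hochberg adjustment over all 14397 genes and a threshold of 0.05, 8 of the 10 genes were lower and 1 was higher, where 33.0% of all tested genes were lower and 36.0% higher. The same 9 genes were those whose 3 tumors did not overlap the 3 normal livers, 8 below and 1 above, against 35.1% and 39.0% of all tested genes. Their median log2 fold change was -0.82, beside 0.06 over all tested genes. With plain library totals 5 of the 10 were called higher and 3 lower, where 8899 of 14426 tested genes were higher and 2087 lower. The all-gene median moved by 0.56 with that scaling, so directions are also given against that median. *Sqstm1* lay above the all-gene median, and the 8 lower genes below it, under all 4 scalings tried. A scaling moves each gene and that median nearly together, so this agreement was largely fixed in advance and adds no support. For *Becn1* the distance from the median was -0.35 in the deposited scaling and -0.06 with equal FPKM sums. Against a change of 1.5-fold, limma's treat called 4 of the 10 lower, *Map1lc3a*, *Gabarapl1*, *Wipi1* and *Atg5*, and 0 higher. Of all tested genes, 16.9% were called lower and 15.9% higher. At an unadjusted p under 0.05 treat gave 5 lower and 0 higher, with no share of all tested genes computed at that threshold.

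*Sqstm1* encodes p62, which binds ubiquitinated cargo and LC3 and is itself degraded by autophagy. It lies on chromosome 11 (50199366 to 50210827 of GRCm38, minus strand). Its level was 121, 143 and 96.7 FPKM in the 3 normal livers and 177, 213 and 239 FPKM in the vehicle-treated tumors. Every tumor was above every normal liver, with a log2 fold change of 0.80 (SE 0.224, limma adjusted p = 0.00715), which became 1.73 with plain library totals. With limma's treat, which asks for a change beyond 1.5-fold, the call was not kept (adjusted p = 0.393). It was the most abundant of the 10 genes in tumors and second to *Gabarapl1* in normal liver, with means of 210 ± 31.1 and 120 ± 23.2 FPKM (SD, n = 3).

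*Sqstm1* was lower under both drugs. It was at 79.8, 59.6 and 93.5 FPKM under MLN0128 and 59.6, 98.7 and 77.5 FPKM under everolimus, so that all 6 treated tumors were below the lowest vehicle-treated one. The log2 fold change against vehicle was -1.43 under MLN0128 (95% confidence interval -1.93 to -0.94, limma adjusted p = 0.000942) and -1.42 under everolimus (-1.91 to -0.93, adjusted p = 0.00343). These values share the same 3 vehicle-treated tumors. Compared directly, the drugs differed by -0.01 (95% interval -0.50 to 0.48, limma adjusted p = 0.981), an interval that still allows a difference of about 0.5 in either direction on the log2 scale. Without MLN0128 replicates 1 and 2 the value against vehicle was -1.15. *Mrnip*, on the opposite strand, shares 17.3% of the *Sqstm1* exon bases and was at 0.987 to 2.28 FPKM over all libraries. Whether reads were counted by strand is not given in the sources used here.

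**Figure D1:**
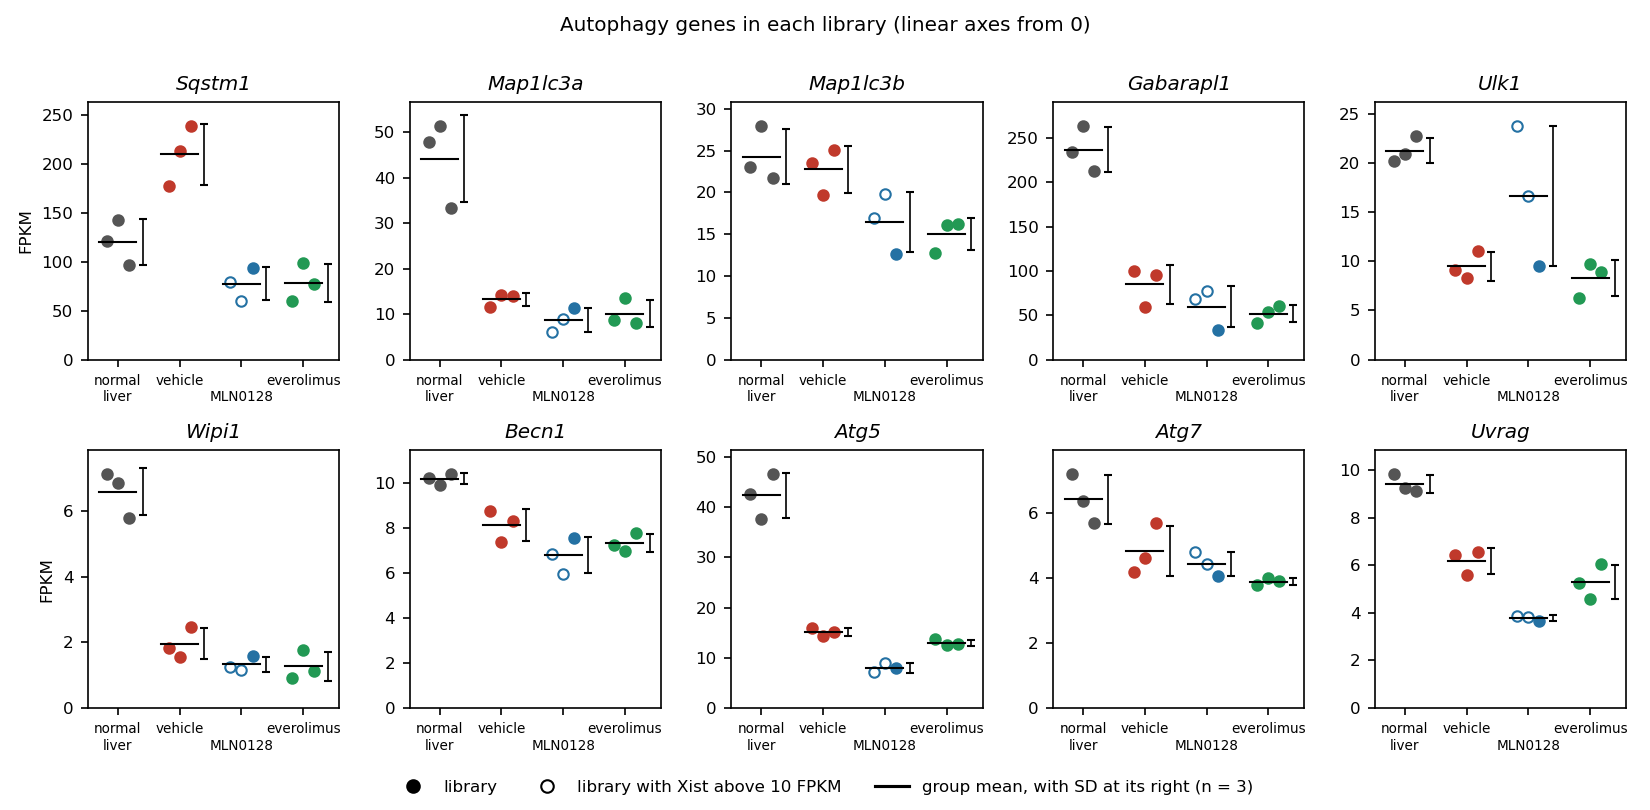
FPKM (vertical axes, linear from 0) of the 10 autophagy genes in each of the 12 libraries, by group, where points are libraries, the horizontal line is the group mean, the bar at its right is the SD (n = 3) and open points are the 2 libraries with Xist above 10 FPKM. *Sqstm1* was at 177 to 239 FPKM under vehicle and 59.6 to 98.7 under either drug, *Atg5* stepped from 37.7 to 46.7 in normal liver down to 7.08 to 9.0 under MLN0128, and the 2 highest MLN0128 values of *Ulk1* are the open points.

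The ubiquitin-like genes of the ATG8 family encode proteins that are joined to lipid on the growing membrane, where they hold receptors such as p62. *Gabarapl1* (chromosome 6, 129533160 to 129542346), a GABARAP-type member, was the most abundant of the 10 genes in normal liver at 234, 264 and 213 FPKM, and was at 100, 59.8 and 95.5 FPKM in vehicle-treated tumors. Its log2 fold change was -1.50 (SE 0.295, limma adjusted p = 0.000758), and -0.57 with plain library totals, which was not called (adjusted p = 0.0769). With MLN0128 it was at 68.7, 77.4 and 33.2 FPKM and under everolimus at 41.2, 53.8 and 60.6 FPKM. Both drug groups overlapped vehicle-treated tumors by their highest libraries, and neither difference was called (log2 fold change -0.55, limma adjusted p = 0.173, and -0.69, adjusted p = 0.163). Its MLN0128 libraries differed 2.33 times between lowest and highest, and with replicate 3 alone, the lowest, the value against vehicle was -1.30. *1700101I11Rik*, on the opposite strand, shares 28.3% of the *Gabarapl1* exon bases.

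*Map1lc3a* and *Map1lc3b* encode LC3A and LC3B, of which LC3B is the usual marker protein of autophagosomes. *Map1lc3a* (chromosome 2, 155276297 to 155278073) was at 47.7, 51.4 and 33.4 FPKM across normal livers and at 11.5, 14.2 and 14.0 FPKM in vehicle-treated tumors. With a log2 fold change of -1.65 (SE 0.235, limma adjusted p = 6.47e-05), it had the largest tumor difference of the 10 genes on this scale. *Map1lc3b* (chromosome 8, 121590361 to 121598760) was instead at 23.1, 28.0 and 21.7 FPKM across normal livers and at 23.5, 19.7 and 25.1 FPKM in vehicle-treated tumors, and these overlapped (log2 fold change -0.09, 95% interval -0.46 to 0.28, limma adjusted p = 0.662). With plain library totals *Map1lc3b* was higher in tumors, by 0.80 on the log2 scale (adjusted p = 0.000564).

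Under treatment neither LC3 gene was called. *Map1lc3a* was at 6.14, 8.90 and 11.4 FPKM under MLN0128, below all vehicle-treated tumors (log2 fold change -0.57, limma adjusted p = 0.0866), and at 8.61, 13.5 and 8.16 FPKM under everolimus (-0.39, adjusted p = 0.323). *Map1lc3b* was at 17.0, 19.8 and 12.7 FPKM under MLN0128, overlapping vehicle by 1 library (-0.46, limma adjusted p = 0.0581), and at 12.8, 16.1 and 16.2 FPKM under everolimus, below all 3 vehicle-treated tumors (-0.57, adjusted p = 0.0546). The *Map1lc3b* values lay close to the threshold, and the call changed under 5 of 24 alternatives under everolimus and 3 of 24 under MLN0128. Those for MLN0128 include the setting with replicate 3 alone.

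Shares within the ATG8 family do not depend on the scaling between libraries. The 5 genes measured, with *Gabarap* and *Gabarapl2* added, summed to 471 to 551 FPKM in normal liver, 176 to 227 under vehicle, 105 to 160 under MLN0128 and 119 to 150 under everolimus. With each library brought to the same FPKM sum, normal livers and vehicle-treated tumors overlapped (605 to 721 and 508 to 706), while with plain library totals they did not (275 to 327 and 199 to 257). *Map1lc3b* made up 4.35% to 5.08% of the family in normal liver, 10.4% to 11.2% under vehicle, 12.1% to 12.8% under MLN0128 and 10.8% to 11.3% under everolimus. Its share in every tumor was therefore more than that in any normal liver, and all 3 MLN0128 shares were above all other tumors. The *Map1lc3a* share went from 7.10% to 9.33% in normal liver to 5.07% to 8.05% under vehicle, which overlapped. *Sqstm1* stood at 4.46 to 5.24 times the *Map1lc3b* level in normal liver, 7.53 to 10.8 times under vehicle, 3.01 to 7.36 times under MLN0128 and 4.66 to 6.13 times under everolimus, so vehicle-treated tumors were above every other library on this ratio.

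**Figure D2:**
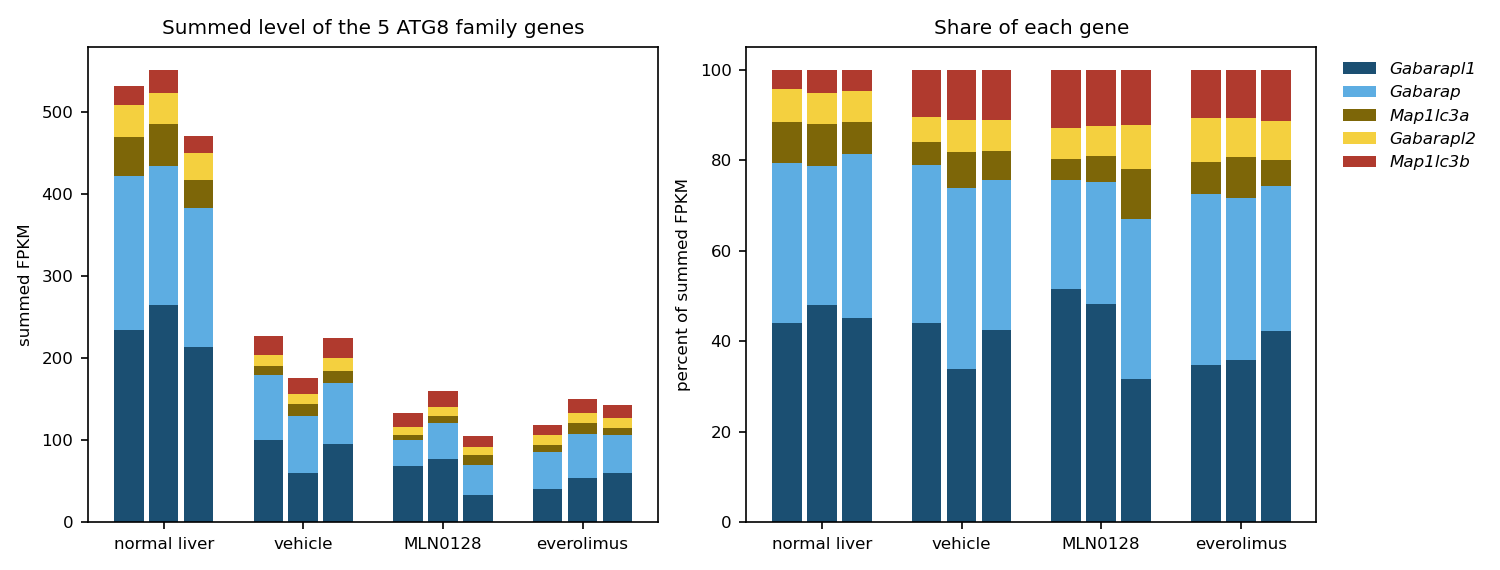
Summed FPKM of the 5 ATG8 family genes in each library (left, vertical axis from 0) and the percent each gene takes of that sum (right), with 3 bars per group in replicate order. The sums were 471 to 551 FPKM across normal livers and 176 to 227 under vehicle in the deposited scaling, ranges that overlapped when each library was brought to the same sum but not with plain library totals, and the *Map1lc3b* share was 4.35% to 5.08% in normal liver and 10.4% to 12.8% in tumors.

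At initiation, *Ulk1*, the kinase that mTORC1 phosphorylates to hold autophagy back, was at 20.2, 20.9 and 22.7 FPKM across normal livers and at 9.10, 8.28 and 11.1 FPKM in vehicle-treated tumors. It lies on chromosome 5 (110784488 to 110810097, minus strand). The log2 fold change was -1.09 (SE 0.258, limma adjusted p = 0.00258), -0.22 with plain library totals and 0.03 with equal FPKM sums. With MLN0128 the 3 libraries were at 23.8, 16.6 and 9.54 FPKM, the widest spread of any of the 10 genes in any group (2.49 times between lowest and highest), and under everolimus at 6.25, 9.75 and 8.89 FPKM. The 2 MLN0128 libraries above all vehicle-treated tumors were those with *Xist*, and the third was inside the vehicle range. The MLN0128 difference from vehicle was 0.67 (95% interval 0.11 to 1.24, limma adjusted p = 0.0661), 1.00 without replicate 3 (adjusted p = 0.00374) and 0.02 with replicate 3 alone. Drug and sex chromosome content cannot be told apart for those 2 libraries.

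*Wipi1*, whose product binds phosphatidylinositol 3-phosphate on the forming membrane, was the least abundant of the 10 genes in all 3 tumor groups. It lies on chromosome 11 (109573331 to 109611967). It was at 7.15, 6.87 and 5.80 FPKM across normal livers and 1.83, 1.55 and 2.48 FPKM under vehicle, with no overlap and a log2 fold change of -1.37 (SE 0.163, limma adjusted p = 1.51e-05). The value was -0.62 with plain library totals and was still called (adjusted p = 0.0105). With the drugs it was at 1.14 to 1.59 FPKM (MLN0128) and 0.912 to 1.77 FPKM (everolimus), and both ranges met that of vehicle. Neither difference was called (-0.34 and -0.39, limma adjusted p = 0.136 and 0.152).

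*Becn1* and *Uvrag* encode subunits of the class III PI3-kinase complexes that make the lipid WIPI1 binds. *Becn1* (chromosome 11, 101285952 to 101302286) varied least over the 12 libraries, at 9.92 to 10.4 FPKM in normal liver, 7.36 to 8.73 under vehicle, 5.94 to 7.56 under MLN0128 and 6.99 to 7.75 under everolimus. The tumor difference was -0.29 on the log2 scale (SE 0.106, limma adjusted p = 0.0271), reversed to 0.54 with plain library totals, and the drug differences of -0.23 and -0.13 were not called (adjusted p = 0.117 and 0.467). *Cntd1*, on the opposite strand, shares 43.9% of the *Becn1* exon bases and was not analysed here.

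*Uvrag* (chromosome 7, 98885021 to 99141141, minus strand) was at 9.84, 9.26 and 9.13 FPKM across normal livers and 6.41, 5.57 and 6.57 FPKM under vehicle. That difference was -0.54 on the log2 scale (SE 0.109, limma adjusted p = 0.000897) and reversed to 0.28 with plain library totals. With MLN0128 the 3 libraries were at 3.87, 3.81 and 3.65 FPKM, tighter than any other group and below every other library. The MLN0128 difference from vehicle was -0.59 (SE 0.109, limma adjusted p = 0.00225) and was -0.62 with replicate 3 alone. With everolimus it was at 5.24, 4.59 and 6.03 FPKM, which overlapped vehicle (-0.20, limma adjusted p = 0.275). Parts of *Uvrag* transcripts are at least 95% identical over 100 or more bases to transcripts of 69 other genes, the longest stretch being 345 bases, so some of its reads may be shared. *Gm45187*, on the opposite strand, shares 17.6% of its exon bases.

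Conjugation of LC3 to lipid needs ATG7, the activating enzyme, and ATG5, which joins ATG12 to form the ligase. *Atg5* (chromosome 10, 44268358 to 44364291) was at 42.7, 37.7 and 46.7 FPKM across normal livers and 16.0, 14.3 and 15.1 FPKM under vehicle. Its log2 fold change of -1.42 (SE 0.114) had the smallest limma adjusted p of the 10 genes (7.12e-07), and it was -0.52 with plain library totals (adjusted p = 0.000875). With MLN0128 it was at 7.08, 9.0 and 7.86 FPKM and under everolimus at 13.7, 12.5 and 12.8 FPKM. Both drug groups were below all vehicle-treated tumors, by -0.85 under MLN0128 (SE 0.114, limma adjusted p = 0.000461) and, not called, by -0.20 under everolimus (95% interval -0.45 to 0.04, adjusted p = 0.277). With MLN0128 replicate 3 alone the value was -0.86. The 4 groups of *Atg5* did not overlap anywhere, in the order normal liver, vehicle, everolimus, MLN0128.

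*Atg7* (chromosome 6, 114643097 to 114860614) moved less. It was at 7.21, 6.36 and 5.69 FPKM across normal livers and 4.19, 4.62 and 5.68 FPKM under vehicle, where the highest tumor and the lowest normal liver were 0.01 FPKM apart. The log2 fold change was -0.35 (SE 0.121, limma adjusted p = 0.0217) and reversed to 0.43 with plain library totals. It was at 4.07 to 4.79 FPKM under MLN0128 and 3.77 to 3.99 FPKM under everolimus, and neither difference from vehicle was called (-0.10 and -0.25, limma adjusted p = 0.580 and 0.216). *Atg5* was at 5.92 to 8.21 times the *Atg7* level in normal liver, 2.66 to 3.82 times under vehicle, 1.48 to 2.03 times under MLN0128 and 3.13 to 3.63 times under everolimus, a ratio that no scaling between libraries changes.

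Taking the drugs in turn, 3 of the 10 genes, *Sqstm1*, *Atg5* and *Uvrag*, were lower under MLN0128 and 0 were higher, where 17.1% of all tested genes were lower and 14.9% higher than under vehicle. Without overlap, 4 of the 10 were below vehicle and 0 above, against 23.4% and 22.1% of all tested genes. The median log2 fold change of the 10 was -0.51, beside -0.01 for all tested genes. Under everolimus 1 gene, *Sqstm1*, was lower and 0 were higher, where 6.05% of all tested genes were lower and 3.78% higher. Without overlap, 4 of the 10 were below vehicle and 0 above, against 14.8% and 17.6%, and the median was -0.32 beside 0.03. At an unadjusted p under 0.05 in limma, 5 were lower and 1 higher under MLN0128, and 4 lower and 0 higher under everolimus. By treat against 1.5-fold, 0 of the 10 were called under either drug. Treat called 1.65% of tested genes lower and 0.479% higher under MLN0128, and 0.570% lower and 0.0347% higher under everolimus. At an unadjusted p under 0.05, treat gave 2 lower under MLN0128 and 1 under everolimus. Shares of all tested genes were computed only at the adjusted threshold. The unadjusted counts of both tests therefore have no background beside them and show no excess.

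Set directly against each other, the drugs differed in 2 of the 10 genes, both lower under MLN0128, where 5.54% of all tested genes were lower and 3.99% higher. For *Atg5* the difference was -0.65 (95% interval -0.89 to -0.40, limma adjusted p = 0.0104), and the call was lost without MLN0128 replicate 1 (-0.57, adjusted p = 0.0516). For *Uvrag* it was -0.39 (-0.63 to -0.15, limma adjusted p = 0.0454), a call lost under 17 of 24 alternatives, among them the setting with MLN0128 replicate 3 alone. *Ulk1* was 0.86 higher under MLN0128 (0.29 to 1.42) but not called (adjusted p = 0.0580), and 0.20 with replicate 3 alone. By treat 0 of the 10 were called, where 0.0347% of all tested genes were lower and 0.00695% higher. At an unadjusted p under 0.05 treat also gave 0 of the 10, with no share of all tested genes computed at that threshold. Without overlap, 2 of the 10 were below and 1, *Atg7*, above, against 15.2% and 12.5% of all tested genes. The other 7 genes differed by -0.18 to 0.15, and their intervals, of which the widest ran from -0.52 to 0.78 for *Gabarapl1*, leave room for differences of either sign.

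**Figure D3:**
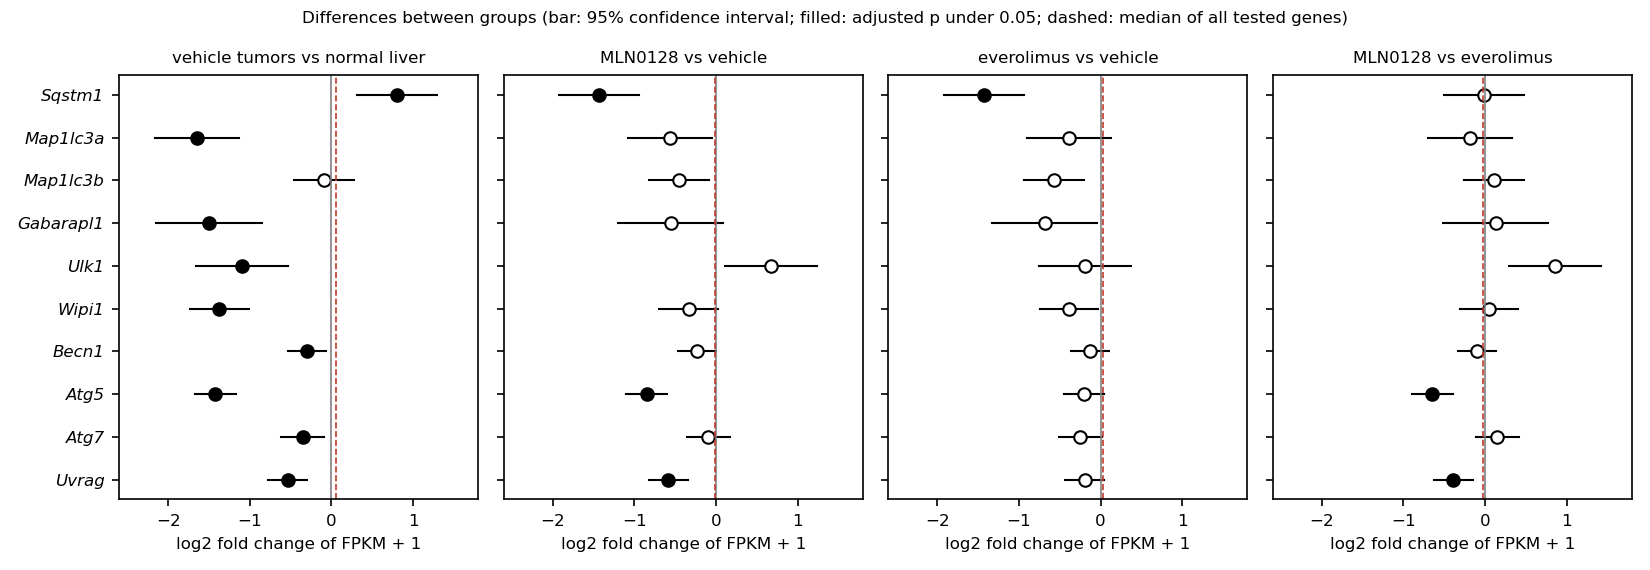
Log2 fold changes of FPKM + 1 (horizontal axes) of the 10 genes in 4 comparisons, with 95% confidence intervals, where filled points had an adjusted p under 0.05 and the dashed line is the median of all tested genes. In the first panel 8 genes are lower and *Sqstm1* is higher, directions that reversed with plain library totals for *Becn1*, *Atg7* and *Uvrag*, and in the drug panels *Sqstm1* is at -1.43 and -1.42 while *Atg5* and *Uvrag* are filled under MLN0128 and not under everolimus.

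Across the 12 libraries, which include the group differences, the 10 genes did not share 1 pattern. *Map1lc3a* and *Wipi1* were most alike (Pearson's r = 0.971 on log2(FPKM + 1), n = 12), followed by *Atg5* and *Uvrag* (0.962), while *Sqstm1* and *Ulk1* were least alike (-0.08). Among all tested genes, the closest to *Sqstm1* were *Rab31* (0.968), *Jup* (0.962) and *Rab30* (0.955), and the closest to *Atg5* were *Iscu* (0.995), *Rab18* (0.992) and *Ube2w* (0.992). The nearest gene to *Ulk1*, *Zkscan14*, was less close (0.935). These correlations are descriptions, since libraries of a group share tissue and scaling.

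The other genes of the pathway were taken from a list of 51 that includes the 10. Of the 41 without the members, 24 were lower and 4 higher in vehicle-treated tumors than in normal liver (median -0.44). Against vehicle, 12 of the 41 were lower and 7 higher under MLN0128 (median -0.09). Everolimus gave 5 lower and 0 higher (median -0.13). Counts over all 51 follow, with the shares of all tested genes. In vehicle-treated tumors 32 were lower and 5 higher than in normal liver, where 33.0% of all tested genes were lower and 36.0% higher, and the median was -0.48 beside 0.06. With plain library totals 27 were higher and 11 lower, where 8899 of 14426 tested genes were higher and 2087 lower. The median was then 0.32 beside 0.62 for all tested genes. With equal FPKM sums 32 were higher and 5 lower, where 10247 of 16070 tested genes were higher and 1731 lower (medians 0.60 beside 0.88). Of the 37 genes called in the deposited scaling, 19 kept their sign under all 4 scalings. Against the median of all tested genes the 32 lower ones were below and the 5 higher ones above in each. Those genes were picked by their calls and that median moves with the scaling, so this agreement was nearly fixed in advance and adds no support. In the ULK1 complex *Ulk2* was lower with *Ulk1* (-2.21, limma adjusted p = 2.80e-07). Among the ATG8 genes *Gabarap* (-1.22) and *Gabarapl2* (-1.37) were lower. Among conjugation genes *Atg3*, the E2 enzyme for LC3, was lower (-1.69) and *Atg4a*, which encodes a protease for ATG8 family proteins, was higher (2.04). Among receptors *Bnip3l* (-1.59) and *Optn* (-1.51) were lower, so in the deposited scaling *Sqstm1* was the 1 receptor of 10 that was higher. *Ulk2*, *Gabarap*, *Gabarapl2*, *Atg3*, *Atg4a*, *Bnip3l* and *Optn* kept their sign under every scaling.

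With MLN0128, 15 of the 51 were lower and 7 higher than under vehicle (median -0.15), where 17.1% of all tested genes were lower and 14.9% higher. The counts were 12 and 9 with plain library totals and 9 and 10 with equal FPKM sums. Under everolimus 6 were lower and 0 higher (median -0.16), where 6.05% of all tested genes were lower and 3.78% higher. At an unadjusted p under 0.05 in limma 14 were lower and 2 higher, with no share of all tested genes computed at that threshold. All 22 genes called under MLN0128 and all 6 called under everolimus kept their sign under the 4 scalings. Of the 10 receptors 6 were lower and 2 higher under MLN0128. Beside *Sqstm1*, the mitophagy receptor *Bnip3* was lower under MLN0128 (-0.99, limma adjusted p = 0.00319), and *Optn* under both drugs (-0.81 and -0.98), while *Nbr1*, a receptor related to p62, and *Calcoco1* were higher under MLN0128 (0.80, adjusted p = 0.000695, and 0.69). *Vamp8*, a SNARE for fusion of autophagosome and lysosome, was lower with both (-1.31 and -1.14), as was *Gabarap* (-0.99 and -0.63). In the PI3-kinase group, where *Uvrag* was lower under MLN0128, the catalytic subunit *Pik3c3* (0.56), *Pik3r4* (0.53) and *Atg14* (0.43) were higher, so UVRAG and ATG14, which sit in separate BECN1 complexes, had opposite RNA differences. Because MLN0128 replicates 1 and 2 express *Xist*, these MLN0128 values do not separate drug from sex chromosome content. Fold changes with replicate 3 alone are given for members only. Between the drugs 4 of the 51 were lower and 4 higher under MLN0128, where 5.54% of all tested genes were lower and 3.99% higher. Beside *Atg5* and *Uvrag*, *Bnip3* (-1.02) and *Wdr45b* (-0.56) were lower, and *Calcoco1*, *Atg2a*, *Atg14* and *Nbr1* were higher (1.01, 0.58, 0.58 and 0.49).

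**Figure D4:**
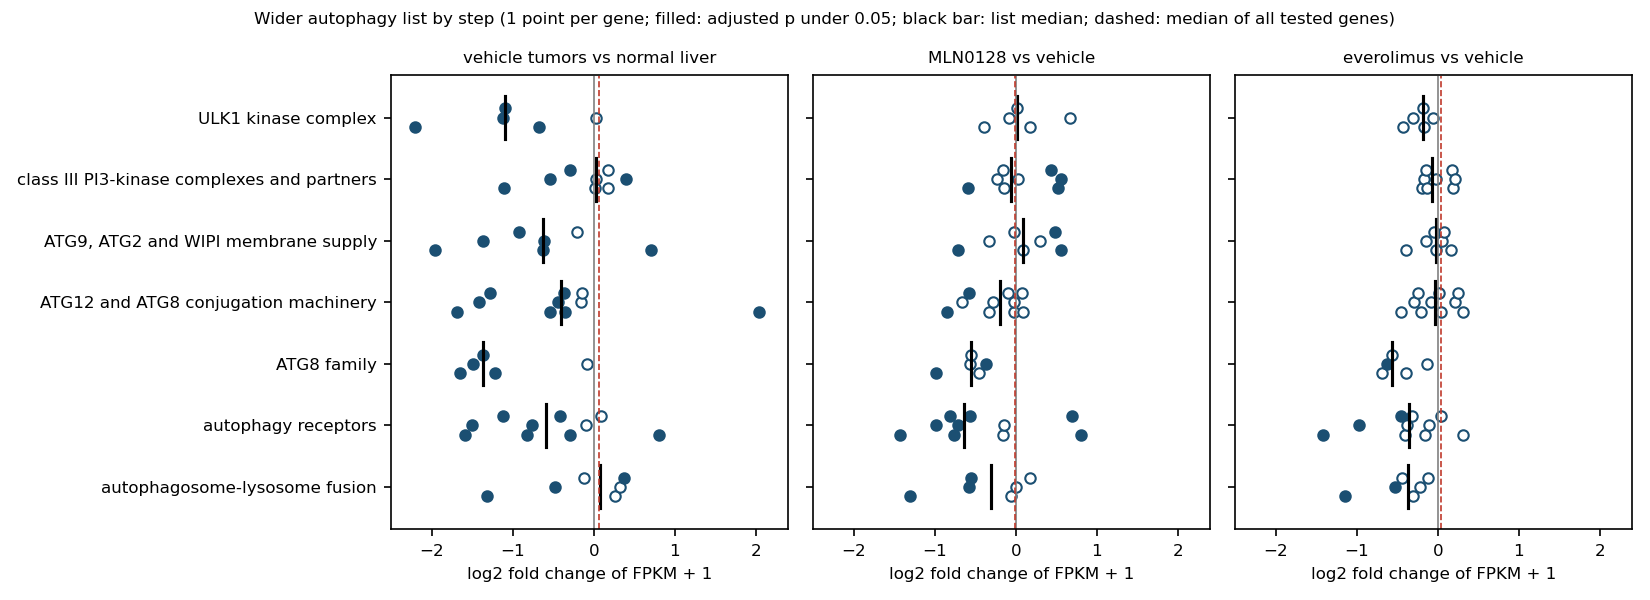
Log2 fold changes of FPKM + 1 (horizontal axes) of 51 autophagy genes by step of the pathway, in 3 comparisons, where each point is a gene, filled points had an adjusted p under 0.05, black bars are the medians of each step and the dashed line is the median of all tested genes. In the deposited scaling 32 genes were lower and 5 higher in the vehicle group than in normal liver (11 and 27 with plain library totals). Against vehicle 15 were lower and 7 higher under MLN0128 (9 and 10 with equal FPKM sums), and 6 lower and 0 higher under everolimus. Of all 14426 genes tested with plain library totals, 2087 were lower and 8899 higher in the vehicle group. Of all 16070 tested with equal FPKM sums, 1369 were lower and 3951 higher under MLN0128.

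Of 6 transcription factors known to act on autophagy genes, *Tfeb* and *Tfe3* were not called in any comparison. *Tfeb* was at 1.79 to 2.39 FPKM in normal liver, 1.52 to 2.48 under vehicle, 1.23 to 1.70 under MLN0128 and 1.17 to 2.10 under everolimus. *Foxo3* (-0.89, limma adjusted p = 0.000949), *Foxo1* (-0.73, 0.00197) and *Mitf* (-0.39, 0.00436) were lower in tumors given vehicle than in normal liver and each reversed under at least 1 other scaling. *Nfe2l2*, which encodes NRF2, a known activator of *Sqstm1*, was higher there (0.25, limma adjusted p = 0.0468). With the drugs it was at 16.5 to 19.1 FPKM (MLN0128) and 20.8 to 22.4 FPKM (everolimus) beside 16.2 to 17.7 FPKM under vehicle and was not called (limma adjusted p = 0.878 and 0.0658). *Foxo3* was higher under MLN0128 than under vehicle (0.63, adjusted p = 0.0215). RNA levels do not show where these factors, several of which mTORC1 or AKT regulate mainly by location, were in the cell.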

How the data were processed

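Total RNA was extracted, and libraries (polyA capture or rRNA removal, per the labels) were made and sequenced by a commercial provider, and the authors deposited FPKM values for 17007 genes, rounded to 3 significant digits, in 12 libraries. The submitters' processing notes name GRCm38 and FastQC 0.11.7. The aligner, the strand setting and the gene lengths are not given in the sources used here. As FPKM are not counts, they were analysed as log2(FPKM + 1), and a gene entered the test when 3 or more libraries reached 0.5 FPKM. The tests used limma 3.58.1 (R 4.3.3), 1 model of all 4 groups with 8 residual degrees of freedom and an intensity trend, and a call at a Benjamini-Hochberg adjusted p under 0.05. A fold change is thus on the log2(FPKM + 1) scale, which understates changes of low genes. The script was tested on simulated data. Reads were recovered from FPKM and the exon lengths of GENCODE M21 and were within 0.1 of a whole number for 97.8% to 98.8% of values under 20 reads. Similar transcripts were found with BLAST 2.17.0, and pandas 2.3.3 and matplotlib 3.10.9 served for tables and figures. Promoters are those of RefSeq.

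The genes named were the 10 members, 6 transcription factors, up to 4 called genes per step of the wider list and comparison with the largest change, and the 3 genes most correlated with a member. The members, lists and tests were chosen with earlier results of these data known. Alternatives covered the pseudocount, filter, scaling, test, libraries and replicate block. The cell type marker lists also covered endothelial, lymphocyte, stellate, neutrophil, cholangiocyte and red blood cells. In 22 rows the symbol had been turned into a date, and these were kept unnamed.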

Additional observations from a re-analysis of the deposited data

How the results depend on the processing

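Over 24 alternatives, the 15 member differences that were called kept direction and call in 309 of 360 checks, lost the call in 44 and reversed in 7, and the 25 not called changed in 45 of 600. In vehicle-treated tumors against normal liver, plain library totals reversed *Map1lc3b* (0.80), *Becn1* (0.54), *Atg7* (0.43) and *Uvrag* (0.28), and equal FPKM sums reversed the same genes (1.08, 0.83, 0.72 and 0.55) and *Ulk1* (0.027), since these scalings move all genes (medians 0.62 and 0.88). Of the calls over all genes, 81.0% and 85.5% were then higher, against 52.1%. With plain totals 8899 of 14426 tested genes were called higher and 2087 lower, and with equal FPKM sums 10247 of 16070 and 1731. Members called higher and lower were 5 and 3 with plain totals, 5 and 0 with equal FPKM sums, and 0 and 4 with treat, which called 18 of the wider list and 32.7% of all genes. For MLN0128 against vehicle, both scalings gave 1 member higher and turned *Atg7* (0.029 and 0.12). Of all tested genes 3389 of 14426 were then higher with plain totals and 3951 of 16070 with equal FPKM sums. Treat gave 0 members, 1 of the wider list and 2.13% of all genes. Without the *Xist*-expressing libraries 1 MLN0128 library is left, assumed to vary like the other groups. That setting is among the 24 alternatives, but its MLN0128 calls are not given. For everolimus against vehicle, 2 members were lower with plain totals, voom on recovered reads or without the *Xist*-expressing libraries, and treat gave 0 members, 0 of the wider list and 0.604%. The wider list had 3 calls with equal FPKM sums and, with only the 2 groups compared, 3, with 6.27% of all genes.

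For MLN0128 against everolimus, 1 member was lower with no filter, equal FPKM sums, plain totals or the replicate block. With equal FPKM sums, plain totals or voom, 1 member, *Ulk1*, was called higher. Treat and the 2-group model each gave 0 members, 0 of the wider list and 0.0417% of all genes, and without the *Xist*-expressing libraries these were 0, 1 and 1.15%. The replicate block gave 5.65% of all genes against 9.53%. Same-numbered libraries did not deviate together (18 pairs, r from -0.289 to 0.148). No pairing by number was detected, though groups this small cannot exclude one. Member differences here that were not called turned sign: equal FPKM sums gave *Sqstm1* 0.24, *Map1lc3a* 0.049 and *Becn1* 0.13, plain totals *Sqstm1* 0.13 and *Becn1* 0.026, and libraries without *Xist* *Sqstm1* 0.28, *Map1lc3a* 0.19, *Map1lc3b* -0.22, *Gabarapl1* -0.61 and *Becn1* 0.042.

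With each of the 12 libraries left out in turn, members lower were 6 to 8 against normal liver, 3 to 4 under MLN0128, 1 to 2 under everolimus and 0 to 2 between the drugs, and members higher were 1, 0 to 1, 0, and 0 to 1. The wider list had 2 to 8 calls for everolimus and 1 to 9 between the drugs, and all genes 21.0% to 33.2% (MLN0128), 3.72% to 11.6% (everolimus) and 1.26% to 11.1% (between the drugs). The lowest came without MLN0128 replicate 1, everolimus replicate 1 and everolimus replicate 3, and the highest of the last pair without MLN0128 replicate 3. Without MLN0128 replicate 1, no member differed between the drugs. Signs turned for *Map1lc3b* against normal liver (-0.16 to 0.016), *Atg7* under MLN0128 (-0.18 to 0.0066) and, between the drugs, *Sqstm1* (-0.19 to 0.17), *Map1lc3a* (-0.37 to 0.031), *Map1lc3b* (-0.023 to 0.28), *Gabarapl1* (-0.097 to 0.50) and *Wipi1* (-0.060 to 0.21), none of them called.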

Other observations

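Summed levels of the other cell type markers also differed between the groups that the autophagy genes were compared in. The 6 endothelial markers summed to 26.8 to 35.7 FPKM in normal liver, 12.7 to 19.3 under vehicle, 10.5 to 14.0 under MLN0128 and 11.3 to 18.8 under everolimus, and the 7 stellate and fibroblast markers to 61.8 to 86.1, 22.9 to 48.6, 28.3 to 54.5 and 41.7 to 52.6 FPKM. The 5 red blood cell markers summed to 289 to 653, 35.2 to 88.5, 16.1 to 40.6 and 107 to 131 FPKM in the same order, so everolimus-treated tumors were above the other tumors. The 5 cholangiocyte markers summed to 40.2 to 43.6, 36.8 to 92.5, 10.3 to 28.1 and 17.2 to 61.8 FPKM. The 4 neutrophil markers measured summed to 3.26 to 17.9, 4.17 to 5.04, 1.03 to 6.34 and 2.83 to 8.20 FPKM, and the 6 lymphocyte markers measured to at most 3.04 FPKM in any library. The sums hide markers that moved apart. In vehicle-treated tumors against normal liver, 3 of 7 stellate and fibroblast markers were called higher and 4 lower. For macrophages 1 of 8 was higher and 6 lower, and for endothelium 0 of 6 higher and 3 lower. Of 4 cholangiocyte markers tested 3 were higher and 0 lower. Over all tested genes 36.0% were higher and 33.0% lower. The part of these markers in the autophagy gene differences was not tested.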
